A study of Homo sapiens with 12 samples.

Results

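The genes described here are 9 neighbours at the very end of the short arm of human chromosome 16, taken by symbol from a count table of 50868 Ensembl gene identifiers. In order from the chromosome end they are POLR3K, SNRNP25, RHBDF1, MPG, NPRL3, LUC7L, FAM234A, AXIN1 and NME4. They were selected on their counts in these libraries, because a run of 4 of them, MPG to FAM234A, had almost none in one of the cell lines, so the difference between the lines is given as a description, with no test. The series holds RNA-seq counts for 12 libraries of MKN45 and MKN28, both established gastric cancer cell lines of human origin, all carrying a lentivirus. The 4 groups of 3 libraries each are MKN45 cells overexpressing ZNF165 (LV-ZNF165), MKN45 control cells (LV-Control), MKN28 cells with ZNF165 knocked down (LV-ZNF165-siRNA) and MKN28 control cells (LV-Control). For knockdown replicates 2 and 3 the description reads ZNF166 and ZNF167 but the genotype reads ZNF165 knockdown; they were grouped by genotype. No label gives clones, passage or whether replicates were separate cultures, so each p-value reflects only library-to-library spread, possibly of technical origin.

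This stretch of chromosome is gene-dense and is best known for the alpha-globin genes, which are used in red blood cell precursors and lie in the middle of it. The genes around the globins serve general cell functions and are broadly used. NPRL3 is a subunit of GATOR1, the complex that restrains the growth kinase complex mTORC1 when amino acids are scarce, and its introns hold the enhancers of the alpha-globin genes. MPG is the DNA glycosylase that starts base excision repair of alkylated purines. LUC7L is a protein associated with the U1 snRNP that takes part in choosing the 5′ splice site of an intron. FAM234A is a membrane protein of little known function. On the side nearest the chromosome end lie POLR3K, a small subunit of RNA polymerase III, SNRNP25, a protein of the minor spliceosome's U11/U12 particle, and RHBDF1, an inactive rhomboid (iRhom) that controls the traffic of the protease ADAM17. On the inner side lie AXIN1, the scaffold of the complex that marks beta-catenin for destruction, and NME4, a mitochondrial nucleoside diphosphate kinase.

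The sequences just before the starts of these genes are shown because the boundaries of the silent run fall between neighbouring starts. RefSeq (GRCh38.p14) gave a start for all 9 genes, and the stretches below are the 250 bases before it, read along the gene, 5′ to 3′, with the GC box in capitals (GGGCGG, or CCGCCC on the other strand). RHBDF1 and MPG face away from each other, with 5593 bases between their RefSeq starts, which lie inside the longer gene spans that GENCODE gives them. RHBDF1 was expressed in both lines, and MPG lies on the silent side of that boundary.
RHBDF1, chr16:72632-72881, minus strand: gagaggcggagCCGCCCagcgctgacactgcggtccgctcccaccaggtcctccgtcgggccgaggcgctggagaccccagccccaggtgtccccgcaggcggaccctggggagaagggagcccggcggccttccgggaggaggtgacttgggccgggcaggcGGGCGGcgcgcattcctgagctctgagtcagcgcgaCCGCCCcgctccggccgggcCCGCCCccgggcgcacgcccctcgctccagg
MPG, chr16:77975-78224, plus strand: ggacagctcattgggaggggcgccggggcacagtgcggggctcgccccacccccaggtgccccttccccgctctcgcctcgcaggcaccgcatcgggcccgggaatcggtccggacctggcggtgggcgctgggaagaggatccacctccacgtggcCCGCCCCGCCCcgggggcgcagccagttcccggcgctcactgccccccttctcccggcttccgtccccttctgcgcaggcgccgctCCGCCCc
The next 3 windows belong to the other silent genes, and the last to AXIN1, the first gene past the run that was expressed in MKN45. The starts of FAM234A and AXIN1 lie 117901 bases apart.
NPRL3, chr16:138674-138923, minus strand: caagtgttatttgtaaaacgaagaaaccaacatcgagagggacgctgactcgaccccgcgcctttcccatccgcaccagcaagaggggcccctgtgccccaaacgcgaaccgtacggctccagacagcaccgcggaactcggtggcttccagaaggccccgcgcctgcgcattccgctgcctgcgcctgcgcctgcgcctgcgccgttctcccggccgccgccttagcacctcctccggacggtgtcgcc
LUC7L, chr16:229450-229699, minus strand: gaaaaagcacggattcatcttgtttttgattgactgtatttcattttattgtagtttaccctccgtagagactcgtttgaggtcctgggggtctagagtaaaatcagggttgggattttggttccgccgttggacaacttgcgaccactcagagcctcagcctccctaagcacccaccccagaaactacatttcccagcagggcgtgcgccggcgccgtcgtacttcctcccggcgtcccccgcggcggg
FAM234A, chr16:234571-234820, plus strand: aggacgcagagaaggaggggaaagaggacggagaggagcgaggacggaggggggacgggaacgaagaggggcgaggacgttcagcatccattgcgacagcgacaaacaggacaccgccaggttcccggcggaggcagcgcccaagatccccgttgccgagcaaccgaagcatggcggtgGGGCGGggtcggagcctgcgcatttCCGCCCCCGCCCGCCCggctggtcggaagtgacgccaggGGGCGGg
AXIN1, chr16:352724-352973, minus strand: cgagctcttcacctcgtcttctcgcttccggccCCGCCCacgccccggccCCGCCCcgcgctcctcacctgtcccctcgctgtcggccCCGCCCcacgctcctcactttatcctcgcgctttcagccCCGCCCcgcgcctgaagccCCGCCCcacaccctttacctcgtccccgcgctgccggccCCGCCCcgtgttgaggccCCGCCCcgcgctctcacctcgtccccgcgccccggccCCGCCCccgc
POLR3K and SNRNP25, both expressed in MKN45, are read in opposite directions from starts 219 bases apart. The stretch between those starts is printed here with the CCAAT box in capitals (CCAAT, or ATTGG on the other strand).
POLR3K-SNRNP25, chr16:53609-53827, plus strand: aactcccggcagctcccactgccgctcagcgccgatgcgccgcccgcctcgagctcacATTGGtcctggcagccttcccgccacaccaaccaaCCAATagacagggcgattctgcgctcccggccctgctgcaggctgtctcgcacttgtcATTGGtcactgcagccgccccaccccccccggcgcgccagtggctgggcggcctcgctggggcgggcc

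The windows did not split by these letters between the silent genes and the others. A GC box stood in 7 of the 9 windows, against 42.6% of the 35116 windows of the same length in the RefSeq table. NPRL3 and LUC7L, both silent in MKN45, held none, while FAM234A, also silent, held 5 and MPG 3. AXIN1 held 8 and RHBDF1 4. A CCAAT box stood in 4 of the 9 windows, those of POLR3K, SNRNP25, MPG and NME4, against 32.0% of all windows. The windows of POLR3K and SNRNP25 share 219 bases, so the 3 CCAAT boxes and 4 GC boxes there were counted in both. MPG and NME4 held 1 CCAAT box each. A TATA box (TATAAA, either strand) was found in 0 of 9 windows and in 10.7% of all. All 9 windows were rich in CpG, with 17 (LUC7L) to 35 (AXIN1) CpG steps, against a median of 11 over all windows. GC boxes that overlap each other were each counted, and a match describes the sequence alone.

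The library totals ranged from 12075813 to 19548445 counts. Levels are in CPM, counts scaled by the library total. Where treated and control libraries of a line are compared, the totals were also scaled by TMM factors within that comparison. By library totals alone, a count of 0 allowed up to 0.153 CPM in the deepest library and 0.248 CPM in the one with the lowest total. Both limits were taken as 3 counts and cover counting error only. ZNF165 itself stood at 107, 96.8 and 108 CPM in the overexpression libraries, against 8.72, 10.3 and 17.6 CPM in MKN45 controls, and was 3.09 ± 0.31 higher on the log2 scale (SE, adjusted p = 0.0109 by edgeR's quasi-likelihood test with Benjamini-Hochberg adjustment). In MKN28 it stood at 4.75, 3.95 and 2.52 CPM in the knockdown libraries, against 10.8, 7.89 and 12.4 CPM in controls, a log2 change of -1.47 ± 0.53 (SE, edgeR adjusted p = 0.0459). The ZNF165 groups did not overlap in either line, but both calls were lost in some alternatives. The knockdown call was lost by edgeR without control 1 (adjusted p = 0.154), control 2 (0.0604), control 3 (0.155), knockdown 2 (0.0966) or knockdown 3 (0.173), with no filter (0.0703), with a replicate block (0.0643, and 0.0603 with the length and GC trend also removed) and without knockdown 2 and 3 together (0.198), at log2 changes of -2.21 to -1.09 over all alternatives. The overexpression call was lost by edgeR without overexpression 1 (adjusted p = 0.0662) or 2 (0.0707), at log2 changes of 2.88 to 3.45 over all alternatives. Of 10 gastric epithelial markers, 9 were at 1 CPM or more in both MKN45 groups and 10 in both MKN28 groups. Of 12 markers of fibroblasts, endothelium, leukocytes and red cells, 2 reached that level in each group.

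MPG, NPRL3, LUC7L and FAM234A were silent in MKN45, that is, had at most 3 counts in each of its 6 libraries. In such bulk libraries, fewer cells using a gene and less RNA per cell cannot be told apart. Summed over these 4 genes, the overexpression libraries held 2, 0 and 0 counts and the MKN45 controls 3, 0 and 0, against 3117, 7680 and 4136 in the knockdown libraries and 4056, 6961 and 3419 in MKN28 controls. The 5 counts in MKN45 came from MPG and FAM234A.

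MPG had 1, 0 and 0 counts in the overexpression libraries and 0 in each MKN45 control. It had 1369, 4699 and 2406 counts in the knockdown libraries and 830, 1587 and 623 in MKN28 controls. Its share of all counts in MKN45 was 8.2e-05 of that in MKN28 (exact 95% counting interval 2.1e-06 to 0.000455). The interval pools all libraries of each line, treated and control. It covers counting error alone, not the spread between libraries or the choice of the gene on this difference.

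NPRL3 had 0 counts in all 6 MKN45 libraries. In MKN28 it had 232, 715 and 485 counts after knockdown and 1086, 1302 and 828 in controls. Set against the 3 counts allowed over the 6 MKN45 libraries together, its share of all counts was at least 1647-fold lower in MKN45.

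LUC7L also had 0 counts in all 6 MKN45 libraries, against 411, 167 and 238 counts in the knockdown libraries and 579, 440 and 711 in MKN28 controls. Against the same limit its share was at least 902-fold lower in MKN45.

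FAM234A had 1, 0 and 0 counts in the overexpression libraries and 3, 0 and 0 in MKN45 controls. It had 1105, 2099 and 1007 counts in the knockdown libraries and 1561, 3632 and 1257 in MKN28 controls. Its share of all counts in MKN45 was 0.000353 of that in MKN28 (exact 95% counting interval 9.6e-05 to 0.000904, pooled as for MPG and covering counting error alone). For none of the 4 genes did any MKN45 library come near any MKN28 library.

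**Figure D1:**
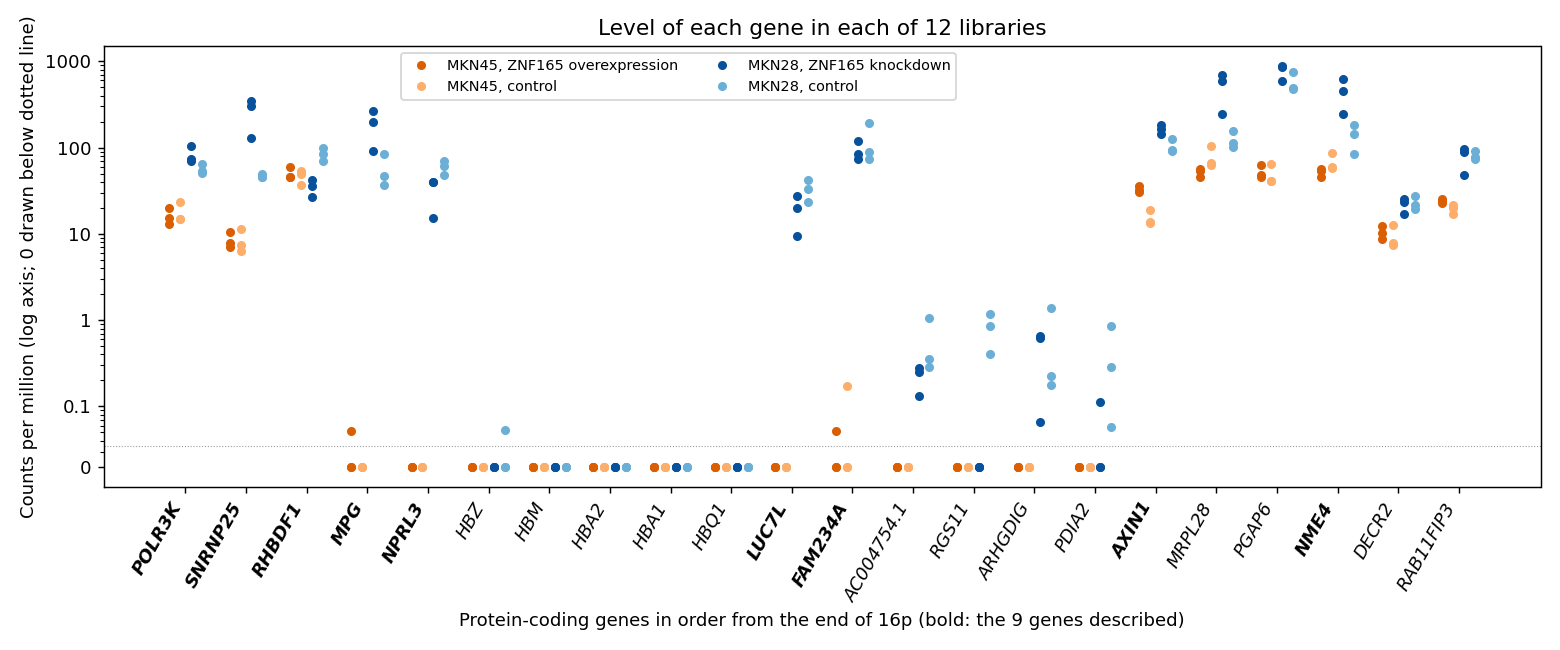
Level of each protein-coding gene in each of the 12 libraries, in order from the chromosome end to RAB11FIP3, in CPM by library totals on a log axis, with libraries at 0 drawn below the dotted line. Each point is 1 library, the 9 genes described are in bold, and MPG, NPRL3, LUC7L and FAM234A have at most 3 counts in every MKN45 library and at least 167 counts in every MKN28 library.

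Nothing annotated between RHBDF1 and AXIN1 passed 3 counts in an MKN45 library. Between the annotated spans of RHBDF1 and AXIN1 (chr16:76356-287439 in GENCODE 29, GRCh38, a stretch of 211084 bases) lie 19 identifiers of the table, 13 of them protein-coding. Together they held 3, 0 and 1 counts in the overexpression libraries and 4, 0 and 0 in MKN45 controls, against 3125, 7699 and 4151 in the knockdown libraries and 4088, 7047 and 3436 in MKN28 controls. In MKN28, 9 of the identifiers passed 3 counts in at least 1 library.

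The 9 protein-coding genes of that stretch other than the silent 4 were little used in MKN28 too, so they say little about the extent of the run. The alpha-globin genes HBM, HBA2, HBA1 and HBQ1 had 0 counts in all 12 libraries, and HBZ had 1 count in MKN28 control 2 and 0 elsewhere. RGS11, a regulator of G protein signalling, had 0 counts in all MKN45 and all knockdown libraries, against 15, 22 and 7 counts in MKN28 controls. ARHGDIG had 0 counts in all MKN45 libraries, against 1, 11 and 8 in the knockdown libraries and 4, 26 and 3 in MKN28 controls. PDIA2, a protein disulphide isomerase, had 0 counts in all MKN45 libraries, 0, 2 and 0 in the knockdown libraries and 5, 16 and 1 in MKN28 controls. AC004754.1 likewise had 0 counts in MKN45, against 2, 5 and 3 in the knockdown libraries and 5, 20 and 6 in MKN28 controls. These 4 overlap or directly follow FAM234A, and where genes overlap the table's counting cannot be checked by strand: FAM234A shares 671 bases with RGS11 and 245 with ARHGDIG.

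On the outer sides the change from silent to expressed was abrupt by the annotated gene spans. On the map, the span of RHBDF1 ends 651 bases before that of MPG. The span of AXIN1 opens 18468 bases past that of FAM234A and 224 bases past that of PDIA2. AXIN1 is read from the minus strand, so this edge is its 3′ end. Its RefSeq start lies further in, 117901 bases from that of FAM234A. RHBDF1 had 880, 897 and 1032 counts in the overexpression libraries and 645, 822 and 787 in MKN45 controls, against 641, 480 and 435 in the knockdown libraries and 1495, 1869 and 1185 in MKN28 controls. The lines overlapped for RHBDF1 once all 6 libraries of each were taken. The WASH4P pseudogene, nearer still to the chromosome end, had 62, 69 and 67 counts in the overexpression libraries and 39, 60 and 51 in MKN45 controls, against 77, 127 and 86 in the knockdown libraries and 66, 102 and 89 in MKN28 controls.

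The 5 members outside the run were all expressed in MKN45 and all averaged less there than in MKN28, by different amounts. The levels that follow are control means in CPM scaled by TMM factors over all 12 libraries. POLR3K averaged 16.5 ± 5.9 CPM in MKN45 controls and 47.7 ± 10.99 CPM in MKN28 controls (SD, n = 3 each), a ratio of 0.345. SNRNP25, its neighbour across the shared start region, averaged 7.78 ± 3.06 CPM in MKN45 controls and 39.7 ± 3.3 CPM in MKN28 controls (SD, n = 3 each), a ratio of 0.196. For both genes every MKN45 control lay under every MKN28 control. That held for 26.4% of all 10709 protein-coding genes with at least 1 CPM in every control library. It held for 41.7% of the 24 other protein-coding genes of the last megabase at that level. By unscaled library totals the shares were 28.9% of all protein-coding genes and 62.5% of these neighbours.

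AXIN1 was the furthest apart of these 5, at 13.9 ± 2.1 CPM in MKN45 controls and 88.5 ± 24.9 CPM in MKN28 controls (SD, n = 3 each), a ratio of 0.157 with no overlap. RHBDF1 averaged 43.2 ± 10.7 CPM in MKN45 controls and 72.3 ± 20.2 CPM in MKN28 controls (SD, n = 3 each), a ratio of 0.597, again with no overlap between control libraries. NME4 averaged 63.1 ± 19.7 CPM in MKN45 controls and 118 ± 53 CPM in MKN28 controls (SD, n = 3 each), and its control libraries overlapped. By unscaled library totals the 5 ratios were 0.315 (POLR3K), 0.177 (SNRNP25), 0.147 (AXIN1), 0.550 (RHBDF1) and 0.496 (NME4).

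Lower levels in MKN45 were common further along the arm as well. Among the other protein-coding genes of the last megabase, 24 had at least 1 CPM in all 6 control libraries, and 17 of them (70.8%) averaged less in MKN45, with a median log2 ratio of -0.84. Over all 10709 protein-coding genes at that level, 55.4% averaged less in MKN45, with a median of -0.14. By unscaled totals the median was -0.97 over the 24 neighbours and -0.26 over all protein-coding genes at that level. PGAP6, a phospholipase for GPI anchors, had the lowest ratio of the named neighbours, at 0.0925, with 45.6 ± 16.3 CPM in MKN45 controls and 493 ± 188 CPM in MKN28 controls (SD, n = 3 each). RAB11FIP3, an effector of the recycling GTPase Rab11, averaged 17.9 ± 3.4 CPM in MKN45 controls and 69.0 ± 15.2 CPM in MKN28 controls (SD, n = 3 each). MRPL28, of the mitochondrial ribosome, averaged 71.7 ± 26.8 CPM in MKN45 controls and 107 ± 36 CPM in MKN28 controls, and DECR2, a peroxisomal reductase, averaged 8.70 ± 3.48 CPM in MKN45 controls and 19.1 ± 3.5 CPM in MKN28 controls (SD, n = 3 each). NME4 shares 8542 annotated bases with DECR2 and MRPL28 shares 517 with PGAP6, so counts of such pairs may not be independent.

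**Figure D2:**
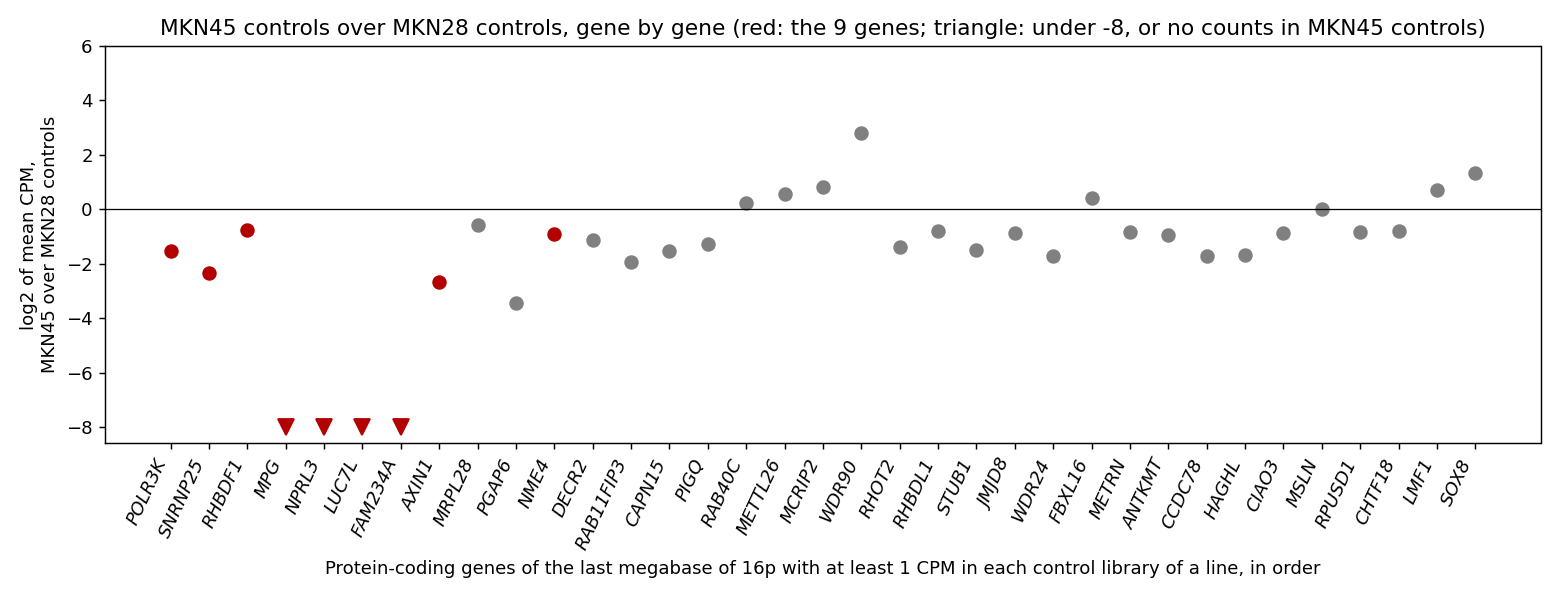
The log2 ratio of mean TMM-scaled CPM in MKN45 controls over MKN28 controls (vertical axis) for the protein-coding genes of the last megabase of 16p with at least 1 CPM in each control library of a line, in order from the chromosome end. Red marks the 9 genes described; the 4 triangles at the bottom are MPG, NPRL3, LUC7L and FAM234A, the other 5 red points lie between -2.67 (AXIN1) and -0.74 (RHBDF1), and most grey neighbours lie below 0.

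In MKN28 the levels of MPG and FAM234A lay within those of the 5 genes outside the run, and NPRL3 and LUC7L were the lowest of the 9. Per kilobase of transcript, in TMM-scaled CPM, the MKN28 control means ran from NME4 at 95.9 ± 43.3, MPG at 40.9 ± 23.0, SNRNP25 at 36.6 ± 3.1, POLR3K at 34.2 ± 7.9 and FAM234A at 32.4 ± 21.4 to AXIN1 at 24.3 ± 6.8, RHBDF1 at 24.2 ± 6.8, NPRL3 at 15.9 ± 4.3 and LUC7L at 12.9 ± 2.5 (SD, n = 3). Neighbours in that order lay within the larger of their SDs of each other except NME4 over MPG and RHBDF1 over NPRL3. In MKN45 controls the order per kilobase was NME4 at 51.2 ± 15.99, RHBDF1 at 14.4 ± 3.6, POLR3K at 11.8 ± 4.2, SNRNP25 at 7.17 ± 2.82 and AXIN1 at 3.82 ± 0.59 (SD, n = 3), with the silent 4 at or next to 0. RHBDF1 thus stood second in MKN45 and seventh in MKN28.

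Runs of this kind, of 3 or more genes, were few in the table. Of 9406 protein-coding genes with at least 1 CPM by library totals in all 6 MKN28 libraries, 107 (1.14%) were silent in MKN45. Only 6 runs of 3 or more such genes in a row were found. Genes that did not reach 1 CPM in all 6 libraries of either line were passed over. The run at the end of 16p, at 4 genes, was the third longest at these settings. With expression at 0.5 CPM it came after runs of 6, 5 and 5 genes and level with another of 4. It held the same 4 genes when silence was set at 10 counts, when expression was set at 0.5 CPM, and when non-coding genes were included. These settings only loosen the rule or add genes. Nothing annotated in the stretch passed 3 counts in MKN45, so they could lengthen the run but not break it. In the reverse direction, 338 of 11847 genes (2.85%) expressed in MKN45 were silent in MKN28, with 2 runs of 3 or more. That reverse number was 7 with silence at 10 counts, 8 with expression at 0.5 CPM and 3 with non-coding genes included, against 7, 6 and 6 runs silent in MKN45. With pairs counted too, at 3 counts and 1 CPM, runs of 2 or more numbered 9 silent in MKN45 and 27 silent in MKN28.

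The longest MKN45-silent run, of 7 genes on chromosome 1, held genes of the epidermal differentiation cluster, CRCT1, IVL, SPRR3, SPRR1B, SPRR2D, PRR9 and S100A9. A run of 6 on the X chromosome held the cancer-testis genes CSAG2, MAGEA2B, CSAG1, MAGEA12, MAGEA2 and CSAG3, where near-identical pairs such as MAGEA2 and MAGEA2B may share reads. Runs of 3 were the interferon lambda genes IFNL3, IFNL2 and IFNL1 on chromosome 19, DMTN, FHIP2B and NUDT18 on chromosome 8, and KLHL9, MTAP and CDKN2A on chromosome 9. At the settings of 3 counts and 1 CPM the reverse runs, both on the X chromosome, were TCEAL8, BEX2, TCEAL9, BEX3 and TCEAL4, and SLC6A14, CT83 and KLHL13. Mean levels in MKN28 over the 16p run were 25.7 to 120 CPM by library totals, against 11.03 to 83.1 CPM over the chromosome 9 run and 3.15 to 20.4 CPM over the chromosome 8 run.

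The genes whose profile over the 12 libraries was most like the mean of the silent 4 lay elsewhere in the genome. Over 17334 genes, Pearson's r of log2 CPM was 0.999 for FHIP2B, 0.999 for ENG, an endothelial TGF-beta co-receptor, 0.999 for SLC7A10, an amino acid transporter, 0.998 for HIC2, a transcriptional repressor, and 0.998 for VGLL1, a TEAD cofactor. The points fall into the lines, 6 libraries each, and libraries of a line share their genome. ENG had 0 counts in every MKN45 library and 540 to 1571 in MKN28 libraries, whereas HIC2 had 296 to 434 counts in MKN45 and 3130 to 8688 in MKN28.

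ZNF165 knockdown in MKN28 was compared with the control virus to ask which of the 9 genes responded. SNRNP25, MPG, NME4, AXIN1 and POLR3K were higher after knockdown, and RHBDF1, NPRL3, LUC7L and FAM234A did not pass the test. That is 5 of 9 higher and 0 lower, where 19.2% of the 14939 genes tested were called higher, 21.6% lower and 40.8% in either direction at an adjusted p under 0.05 by edgeR's quasi-likelihood test. Of the 40 other protein-coding genes of the last megabase, 9 were higher, 2 lower, 19 did not pass and 10 were too low to test. Knockdown libraries 2 and 3 stood apart in MKN28, with 17620 and 17504 identifiers detected, against 20560 in knockdown library 1 and 21102 to 22579 in controls. Their TMM factors over the 12 libraries were 0.491 and 0.605, against 0.917 in knockdown library 1 and 1.06 to 1.28 in controls. The summed level of the 10 gastric epithelial markers was 17356 to 40855 CPM in the knockdown libraries and 8267 to 9668 CPM in MKN28 controls. The part of these differences in the gene changes was not tested, other than by leaving libraries out.

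SNRNP25 had the largest change of the 9, at 125, 619 and 423 CPM in the knockdown libraries, against 33.2, 36.4 and 37.1 CPM in MKN28 controls. Every knockdown library lay above every control. The log2 fold change was 3.45 ± 0.61 (SE, edgeR adjusted p = 0.00403), and it passed in all 15 alternative analyses, with adjusted p of at most 0.0273 by edgeR or DESeq2. The change was smaller with the length and GC trend removed, at 1.71 ± 0.35, or at 1.63 ± 0.34 with a replicate block too, and without knockdown replicates 2 and 3, at 1.85 ± 0.44 (SE).

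MPG stood at 87.9, 464 and 275 CPM in the knockdown libraries, against 34.3, 67.3 and 27.0 CPM in MKN28 controls, with no overlap. The log2 fold change was 2.69 ± 0.66 (SE, edgeR adjusted p = 0.0104). The call was lost without control replicate 1 (edgeR adjusted p = 0.0571) or control replicate 3 (0.0534). MPG was thus silent in one line and called higher after knockdown in the other.

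NME4 stood at 235, 1093 and 619 CPM in the knockdown libraries, against 104, 146 and 63.0 CPM in MKN28 controls, with no overlap. The log2 fold change was 2.64 ± 0.63 (SE, edgeR adjusted p = 0.00932), with an edgeR adjusted p of 0.0515 once control replicate 3 was left out. In all these genes knockdown replicate 1 was the lowest of its group.

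AXIN1 stood at 140, 290 and 253 CPM in the knockdown libraries, against 68.9, 98.6 and 68.5 CPM in MKN28 controls, and the groups did not overlap. The log2 fold change was 1.53 ± 0.46 (SE, edgeR adjusted p = 0.0238). POLR3K stood at 68.3, 129 and 143 CPM in the knockdown libraries, against 36.6, 50.8 and 40.0 CPM in MKN28 controls, again with no overlap. Its log2 fold change was 1.42 ± 0.46 (SE, edgeR adjusted p = 0.0330). Both calls were lost when any of several libraries was left out, at log2 changes that stayed between 1.33 and 1.91 for AXIN1 and between 1.23 and 1.81 for POLR3K: AXIN1 did not pass without control 1 (edgeR adjusted p = 0.126), control 3 (0.112), knockdown 2 (0.0747) or knockdown 3 (0.0838), and POLR3K did not pass without control 1 (edgeR adjusted p = 0.157), control 2 (0.0596), control 3 (0.127), knockdown 2 (0.0847) or knockdown 3 (0.135). With library totals in place of TMM factors, the log2 changes were 0.66 for AXIN1 (edgeR adjusted p = 0.159) and 0.55 for POLR3K (edgeR adjusted p = 0.268).

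RHBDF1 stood at 41.2, 47.4 and 49.8 CPM in the knockdown libraries, against 61.8, 79.3 and 51.4 CPM in MKN28 controls. The groups did not overlap, and the log2 change of -0.48 ± 0.43 did not pass (SE, edgeR adjusted p = 0.395). It passed as lower with library totals (-1.27, edgeR adjusted p = 0.0418) and once the trend with transcript length and GC content was removed (-1.05, edgeR adjusted p = 0.0334).

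The other 3 silent-run genes had overlapping groups. NPRL3 stood at 14.9, 70.6 and 55.5 CPM in the knockdown libraries, against 44.9, 55.2 and 35.9 CPM in MKN28 controls (log2 change 0.05 ± 0.58, SE, edgeR adjusted p = 0.95). LUC7L stood at 26.4, 16.5 and 27.2 CPM in the knockdown libraries, against 23.9, 18.7 and 30.8 CPM in MKN28 controls (-0.07 ± 0.48, SE, edgeR adjusted p = 0.923). FAM234A stood at 71.0, 207 and 115 CPM in the knockdown libraries, against 64.6, 154 and 54.5 CPM in MKN28 controls (0.53 ± 0.57, SE, edgeR adjusted p = 0.477). Of the run silent in MKN45, 1 gene thus passed as higher in MKN28 and 3 did not pass, and the log2 changes of those 3 differed in sign between analyses.

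**Figure D3:**
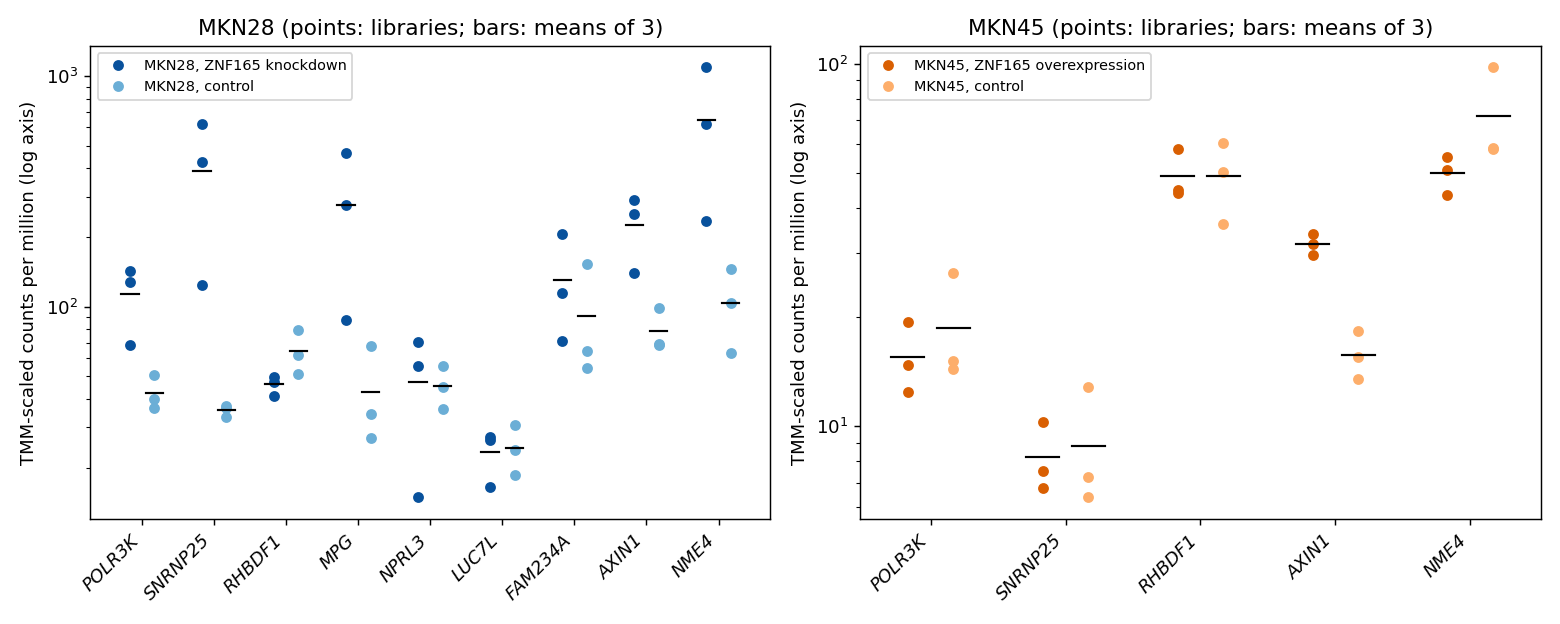
TMM-scaled CPM of the 9 genes in MKN28 (left panel, knockdown left of control) and of the 5 genes tested in MKN45 (right panel, overexpression left of control), on log axes, with a point per library and a bar at each mean of 3. In MKN28 the groups of SNRNP25, MPG, NME4, AXIN1 and POLR3K stand apart with knockdown higher, and in MKN45 those of AXIN1 stand apart with overexpression higher.

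The size of the change in MKN28 went with transcript length over the whole table. The median log2 change was 1.18 in the shortest of 4 length classes of equal size, then 0.31, -0.60 and -1.65 in the classes of rising length. SNRNP25 (1085 bases), MPG (1193), NME4 (1232) and POLR3K (1392) belong to the first class, which ends at 1814 bases, and AXIN1 (3643) to the third, where its change of 1.53 stood against a median of -0.60. LUC7L (2097 bases) lies in the second class and RHBDF1 (2992), NPRL3 (3203) and FAM234A (3213) in the third. With the trend with length and GC content removed, the same 5 genes passed as higher by edgeR, but 3 of the changes were much smaller. The log2 change was then 1.71 ± 0.35 for SNRNP25, 0.83 ± 0.26 for MPG and 1.03 ± 0.34 for NME4, against 3.45, 2.69 and 2.64 before (SE). AXIN1 stood at 1.09 ± 0.24 and POLR3K at 1.68 ± 0.50 (SE), against 1.53 and 1.42 before. Of the 4 genes that had not passed, LUC7L moved to -0.84 and NPRL3 to -0.74.

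**Figure D4:**
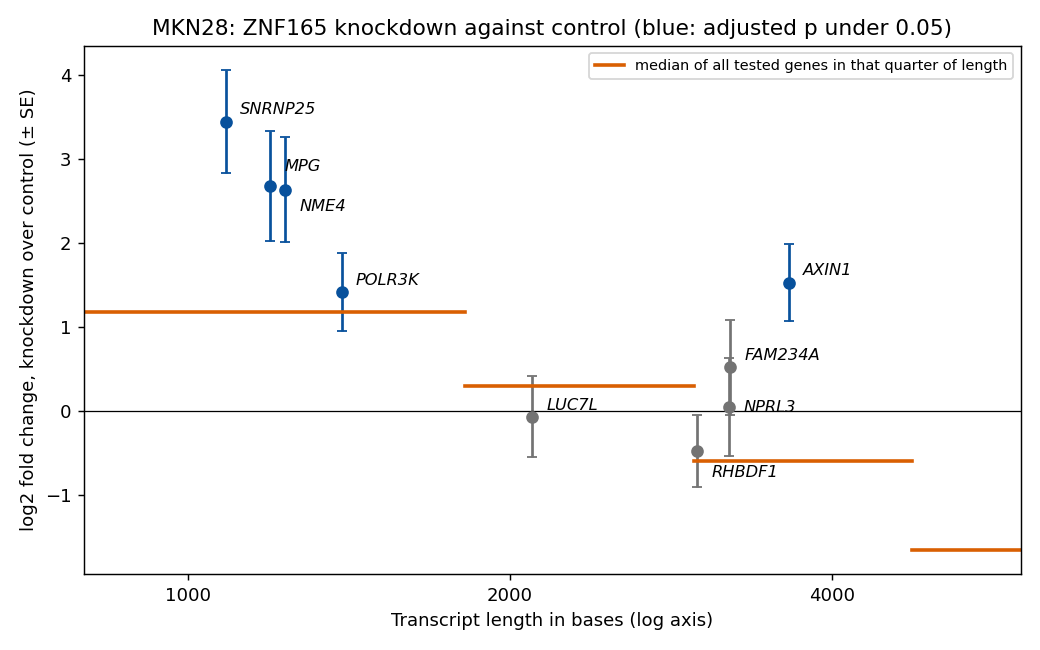
The log2 fold change of knockdown over control in MKN28 (vertical axis, with SE) against transcript length in bases (log axis) for the 9 genes, blue where the adjusted p was under 0.05. Orange lines give the median of all tested genes in each length class, from 1.18 in the shortest to -1.65 in the longest; the 4 shortest of the 9 genes lie at or above the first line and AXIN1 lies above the third.

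ZNF165 overexpression in MKN45 was compared with the control virus in the same way. The silent 4 had 0 or 1 counts in each overexpression library and were too low to test. Of the other 5, 0 passed, where 1.13% of the 15833 genes tested were called in either direction and 0.935% higher at an adjusted p under 0.05 by edgeR. At an unadjusted p under 0.05 edgeR called 4242 genes of the table. Of the 40 other protein-coding genes of the last megabase, 27 were tested by edgeR and 0 passed.

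AXIN1 came nearest to a call, at 31.8, 33.9 and 29.8 CPM in the overexpression libraries, against 18.3, 15.5 and 13.5 CPM in MKN45 controls. The groups did not overlap, and the log2 change was 1.01 ± 0.22 (SE, edgeR adjusted p = 0.0552). It passed with DESeq2 (adjusted p = 0.0023), with the length and GC trend removed (1.12, edgeR adjusted p = 0.0233, but 0.0609 with a replicate block added) and without MKN45 control replicate 2 (1.00, edgeR adjusted p = 0.0228), and over all alternatives the adjusted p ran up to 0.414.

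NME4 stood at 55.2, 50.9 and 43.4 CPM in the overexpression libraries, against 58.3, 97.7 and 58.7 CPM in MKN45 controls. The groups did not overlap, and the log2 change of -0.52 ± 0.26 did not pass (SE, edgeR adjusted p = 0.235). POLR3K averaged 15.5 ± 3.5 CPM in the overexpression libraries and 18.7 ± 6.8 CPM in MKN45 controls, SNRNP25 averaged 8.21 ± 1.87 CPM in the overexpression libraries and 8.82 ± 3.50 CPM in MKN45 controls, and RHBDF1 averaged 48.92 ± 8.01 CPM in the overexpression libraries and 48.94 ± 12.32 CPM in MKN45 controls (SD, n = 3 each). Their groups overlapped, and the edgeR adjusted p was 0.598 for POLR3K, 0.863 for SNRNP25 and 1.000 for RHBDF1.

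Partners of the silent genes were taken from pathway lists. Outside the last megabase the MKN45 and MKN28 controls were tested against each other, and edgeR called 21.4% of 16088 genes higher and 20.4% lower in MKN45. The GATOR and amino acid sensing list, which surrounds NPRL3, had 7 of 29 tested partners higher, 4 lower and 18 that did not pass. NPRL2, the direct partner of NPRL3 within GATOR1, averaged 36.2 ± 4.8 CPM in MKN45 controls and 12.3 ± 7.2 CPM in MKN28 controls (SD, n = 3 each) and was higher in MKN45 by 1.55 ± 0.42 on the log2 scale (SE, edgeR adjusted p = 0.0110). RRAGD, a Rag GTPase that recruits mTORC1 to lysosomes, was higher by 2.55 ± 0.49 (SE, edgeR adjusted p = 0.00124). After knockdown in MKN28, where 19.2% of all tested genes were called higher and 21.6% lower, the list, with WDR24 of the last megabase now counted, had 6 of 29 higher, 4 lower and 19 not passed, led by SESN2, a leucine sensor induced by stress, at 4.33 ± 0.58 (SE, edgeR adjusted p = 0.00367), and by LAMTOR4, of the lysosomal scaffold for Rag GTPases, at 3.20 ± 0.64 (SE, edgeR adjusted p = 0.00521). After overexpression 0 of 30 passed by edgeR. NPRL2 was not called in either arm, with log2 changes of 0.54 after knockdown and -0.47 after overexpression.

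For MPG, the base excision and alkylation repair list had 4 of 20 partners higher in MKN45 controls, 3 lower and 13 not passed. MGMT, which removes methyl groups from guanine, averaged 65.7 ± 22.1 CPM in MKN45 controls and 14.8 ± 7.0 CPM in MKN28 controls (SD, n = 3 each; log2 change 2.15 ± 0.42, SE, edgeR adjusted p = 0.00139). The thymine glycosylase TDG was lower in MKN45 (log2 change -1.99 ± 0.49, SE, edgeR adjusted p = 0.00594). After knockdown, against the same shares over all genes, 3 of 20 were higher, 3 lower and 14 not passed, with MGMT at 2.11 ± 0.65 and the glycosylase NEIL3 at -3.49 ± 0.89 on the log2 scale (SE, edgeR adjusted p = 0.0253 and 0.0121). After overexpression 0 of 20 passed by edgeR.

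For LUC7L, the LUC7 and U1 snRNP list had 2 of 7 partners higher in MKN45 controls, 0 lower and 5 not passed, the called genes being SNRPA and SNRPC, both U1 proteins. The paralogs LUC7L2 and LUC7L3, picked out here after their values were seen, did not pass in that comparison: LUC7L2 averaged 42.0 ± 5.9 CPM in MKN45 controls and 62.5 ± 31.7 CPM in MKN28 controls, and LUC7L3 averaged 44.8 ± 17.4 CPM in MKN45 controls and 90.8 ± 44.4 CPM in MKN28 controls (SD, n = 3 each). LUC7L3 was called in both arms. It stood at 165, 146 and 145 CPM in the overexpression libraries, against 43.6, 26.9 and 64.6 CPM in MKN45 controls, and was higher by 1.75 ± 0.31 on the log2 scale (SE, edgeR adjusted p = 0.0429, up to 0.319 over the alternatives). It was the only gene of the 9 partner lists called after overexpression. After knockdown in MKN28 it averaged 6.71 ± 4.58 CPM in the knockdown libraries and 71.6 ± 35.8 CPM in controls (SD, n = 3 each; log2 change -3.41 ± 0.68, SE, edgeR adjusted p = 0.00514), and in that list 2 of 7 were higher and 2 lower, against 19.2% and 21.6% over all genes. Its annotated transcript of 7040 bases falls in the longest class. FAM234B, the only paralog listed with FAM234A, averaged 20.8 ± 3.0 CPM in MKN45 controls and 9.62 ± 2.99 CPM in MKN28 controls (SD, n = 3 each; log2 change 1.11 ± 0.37, SE, edgeR adjusted p = 0.0313), and was lower after knockdown (-2.44 ± 0.64, SE, edgeR adjusted p = 0.0140).

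Of the lists around the expressed members, the beta-catenin destruction complex list of AXIN1 had 0 of 15 partners higher and 2 lower in MKN45 controls. AXIN2, the Wnt-induced paralog of AXIN1, averaged 1.35 ± 0.41 CPM in MKN45 controls and 25.7 ± 0.4 CPM in MKN28 controls (SD, n = 3 each), a log2 change of -4.25 ± 0.42 (SE, edgeR adjusted p = 7.66e-06). The kinase gene GSK3B was lower too (log2 change -1.63 ± 0.32, SE, edgeR adjusted p = 0.00137). After knockdown, with the same 19.2% and 21.6% over all genes, 2 of the 15 were higher and 7 lower, GSK3A among the higher at 2.22 ± 0.53 and the tankyrase gene TNKS2 among the lower at -3.54 ± 0.80 (SE, edgeR adjusted p = 0.00952 and 0.00775), so AXIN1 moved against most of the list's called genes. After overexpression 0 of 15 passed by edgeR.

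The RNA polymerase III list of POLR3K had 4 of 18 partners higher and 4 lower in MKN45 controls, among them POLR3GL at 2.22 ± 0.40 and POLR3B at -2.36 ± 0.46 on the log2 scale (SE, edgeR adjusted p = 0.000779 and 0.00129). After knockdown 7 of 18 were higher and 2 lower, against 19.2% higher and 21.6% lower over all genes. The higher ones included the small shared subunits POLR2F at 3.44 ± 0.54 and POLR2L at 3.44 ± 0.58, and the lower one with the largest change was POLR3B, the second largest subunit, at -3.05 ± 0.88 (SE, edgeR adjusted p = 0.0037, 0.00378 and 0.0198). The U11/U12 list of SNRNP25 had 0 of 8 higher and 1 lower in MKN45 controls, RNPC3. After knockdown, against the same shares over all genes, 2 of 8 were higher, ZMAT5 at 3.10 ± 0.63 and SCNM1 at 2.85 ± 0.53 (SE, edgeR adjusted p = 0.00541 and 0.00442), and RNPC3 was lower. In both lists 0 passed by edgeR after overexpression.

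The iRhom list of RHBDF1 had 2 of 10 partners higher and 6 lower in MKN45 controls. The EGFR ligand gene EREG averaged 34.7 ± 14.5 CPM in MKN45 controls and 0.784 ± 0.569 CPM in MKN28 controls, and AREG averaged 15.8 ± 4.3 CPM in MKN45 controls and 132 ± 56 CPM in MKN28 controls (SD, n = 3 each). After knockdown, against the 19.2% and 21.6% of all genes, 2 of 9 were higher and 3 lower, with EGFR at -3.47 ± 0.54 and the protease gene ADAM17 at -3.12 ± 0.86 (SE, edgeR adjusted p = 0.00367 and 0.0165), and 0 of 10 passed by edgeR after overexpression. The NME list had 3 of 6 partners higher and 0 lower in MKN45 controls. NME2 averaged 1337 ± 511 CPM in MKN45 controls and 349 ± 113 CPM in MKN28 controls (SD, n = 3 each), and NME5, with 194 counts in MKN45 controls together and 0 in MKN28 controls, was at least 70.9-fold higher against 3 counts over the MKN28 group. After knockdown, against the same shares, 3 of 5 were higher and 0 lower, NME1 at 3.04 ± 0.52, NME2 at 2.61 ± 0.51 and NME3 at 2.13 ± 0.66 (SE, edgeR adjusted p = 0.00378, 0.00495 and 0.0263), the same direction as NME4. After overexpression 0 of 6 passed by edgeR.

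Set beside all genes tested, the partner lists had these median log2 changes. In MKN45 over MKN28 controls, where the median of all genes was -0.04, the list medians were -0.24 for GATOR, 0.30 for base excision repair, -0.55 for LUC7 and U1, -0.51 for the destruction complex, -0.05 for RNA polymerase III, 0.50 for U11/U12, -1.03 for iRhom and 0.96 for NME. After knockdown, where the median of all genes was -0.20, they were 0.09 for GATOR (the value of WDR24), 0.38 for base excision repair, -1.11 for LUC7 and U1, -1.19 for the destruction complex, 1.08 for RNA polymerase III, -0.07 for U11/U12, -0.56 for iRhom and 2.13 for NME. After overexpression, where the median of all genes was -0.0022, they lay between -0.51 for NME and 0.76 for LUC7 and U1. These medians are descriptions, and the lists hold genes of unequal transcript length. The list counts and medians after knockdown were not corrected for length. The median of all genes there ran from 1.18 in the shortest length class to -1.65 in the longest. The part of this trend in the list changes was not tested.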

How the data were processed

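RNA-seq was measured in 12 libraries in 4 groups of 3. The authors deposited whole-number counts per Ensembl gene, per the file headers; HISAT2 and StringTie are named without versions in the submitters' processing notes, and for the genome build, counting step and strand, nothing is given in the sources used here. All 12 columns were used. Totals were 12075813 to 19548445 counts. Positions, lengths and biotypes came from GENCODE 29 (GRCh38; 50111 of 50868 identifiers matched) and start windows from RefSeq GRCh38.p14.

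Counts were tested with edgeR 4.0.16 (R 4.3.3): TMM factors, filterByExpr (minimum count 10, minimum total 15), quasi-likelihood test, Benjamini-Hochberg adjustment over all genes tested, threshold 0.05. Only the libraries of the 2 groups compared entered a test. DESeq2 1.42.0 was an alternative, beside other scalings, no filter, a replicate block, a length and GC correction, a fit of all 12 libraries and libraries left out. CPM were scaled by TMM within the comparison, or over 12 libraries between lines. The limit for a count of 0 was 3 counts.

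The 9 genes and all lists were chosen with earlier results of these data known. Named were the 9 genes, the protein-coding genes out to RAB11FIP3, ZNF165, genes of silent runs of 3 or more, the 5 most similar profiles, and at most 4 called genes per list and comparison, those with the largest log2 change. Within a line, same-numbered replicates did not pair: their deviations correlated at 0.29, 0.43 and -0.36 in MKN28 and at -0.06, -0.05 and 0.09 in MKN45. Between MKN45 and MKN28 controls the same-numbered correlations were 0.26, 0.51 and 0.28, against -0.39 to 0.27 for the other pairings. That comparison was not fitted with a replicate block. Some results are not reported here.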

Additional observations from a re-analysis of the deposited data

How the results depend on the processing

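The counts of the silent genes use no test. The run of 4 genes was found under each of the 3 alternative settings, which could have lengthened it but not broken it. The 2 reverse runs of 3 or more genes, silent in MKN28, became 7 at 10 counts and 8 at 0.5 CPM. In the knockdown comparison 6092 genes were called, 6994 with a replicate block and 3352 with knockdown replicates 2 and 3 left out together, while leaving out 1 library gave 2642 (without control 1), 3171 (without control 3) and up to 10378 (without knockdown 1). Of the knockdown calls 47.0% were higher, against 25.1% with library totals and 58.0% once the length and GC trend was taken out; the median of all genes was -0.20 on the log2 scale and -0.92 with library totals. The overexpression comparison called 179 genes, but 1834 with DESeq2, 1291 with the length and GC trend removed, 722 with no filter, 8 with the replicate block and 3 in a fit of all 12 libraries, and 1 (without overexpression 1 or 2), 12 (without overexpression 3), 6 (without control 3), 591 (without control 1) and 1338 (without control 2) with 1 library left out; the cause was not tested.

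Of the knockdown changes that did not pass, NPRL3 turned to -0.052 with upper-quartile factors, -0.91 with library totals, -0.057 with no filter, -0.17 with the replicate block, -0.74 with the length and GC trend removed, -0.79 with both, -1.58 without knockdown replicates 2 and 3, and -0.36 to 0.59 with 1 library left out. LUC7L turned to 0.083 with DESeq2, 0.018 with all 12 libraries, 0.15 without knockdown replicates 2 and 3, and -0.22 to 0.15 with 1 library left out. FAM234A turned to -0.38 with library totals, -0.084 with the trend removed, -0.041 with trend and block, and -0.34 without knockdown replicates 2 and 3. Without those replicates, SNRNP25 alone of the 5 higher genes still passed by edgeR, since POLR3K (adjusted p = 0.286), AXIN1 (0.198), MPG (0.181) and NME4 (0.110) did not; that setting leaves 1 knockdown library, assumed to vary like the controls. POLR3K also missed with no filter (edgeR adjusted p = 0.0718). With trend and block together RHBDF1 passed as lower (-1.15, edgeR adjusted p = 0.0206).

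In MKN45, SNRNP25 turned to 0.023 with library totals, 0.33 with the trend removed, 0.32 with trend and block, and -0.32 to 0.26 with 1 library left out. RHBDF1 turned to 0.12 with library totals, 0.020 with the block, 0.22 and 0.21 with the trend removed without and with the block, and -0.19 to 0.18 with 1 library left out. POLR3K ran from -0.47 to 0.071 with 1 library left out. Among the partner genes called after knockdown, the signs of GSK3B, TNKS and NTHL1 turned in at least 1 alternative. The replicate block alone ended or added no call among the 9 genes, but added to the length and GC correction it ended that of AXIN1 in MKN45 (edgeR adjusted p = 0.0609). Depth allowed up to 0.248 CPM by library totals for a count of 0. The 9 other protein-coding genes inside the stretch were little used in MKN28 too, so they say little about where silence ends.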
